A study of Mus musculus with 8 samples.

Results

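Transcripts of 46 mouse genes that belong to the p53 response or to the cell death machinery were followed in embryonic stem cells depleted of Mkrn1. The genes were listed by name, 25 as targets of the transcription factor p53 and 21 as apoptosis machinery. Where a gene had several probe sets, the one with the highest mean stood for it. Of the 46, 43 had a probe set annotated to that gene alone (23 p53 targets and 20 apoptosis genes), out of 19937 genes measured in all. Bax, Gdf15 and Ripk1 are not analysed here. MKRN1, a ubiquitin ligase with a RING domain, is also an RNA-binding protein. The study compared cells carrying a hairpin against it with cells carrying a hairpin against GFP. Total RNA was measured on 8 Affymetrix arrays, 4 of shMKRN1 cells (named here shMKRN1 2, 4, 6 and 8, after their titles) and 4 of shGFP cells (shGFP 1, 3, 5 and 7).

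Both groups were R1 cells, a line of male embryonic stem cells from the 129X1 x 129S1 strain, grown on gelatin with LIF and 15% serum. The shMKRN1 cells received 2 µg of a pLKO.1 plasmid that encodes the hairpin against MKRN1, and the shGFP cells the same amount of the pLKO.1 plasmid with the GFP hairpin, 48 h after seeding. All cells were then kept in 2 µg/mL puromycin for 4 days, which kills cells without plasmid, and lysed 6 days after transfection. Each arm therefore rests on 1 hairpin and on the cells that survived selection, and RNA of cells that had died and detached was not measured. Whether the 4 samples of a group were separate transfections is not stated in the labels, so the p-values below measure sample-to-sample spread that may be technical in part or in whole. In bulk RNA, fewer cells expressing a gene and less of its RNA per cell cannot be told apart.

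The protein p53 is a transcription factor that is kept scarce in unstressed cells by the ubiquitin ligase MDM2. After DNA damage and other stresses it accumulates and activates genes for cell cycle arrest, DNA repair, cell death and its own restraint, MDM2 among them. Cell death by the mitochondrial route is set by the BCL2 family, in which BH3-only proteins block survival proteins and release the pore formers. The pores free cytochrome c, which assembles the apoptosome with APAF1 and activates caspases, while death receptors reach the caspases from the cell surface. Embryonic stem cells are known to carry abundant p53 and to undergo apoptosis readily. MKRN1 has been described as a ligase for p53 and for p21 in human cells, so transcripts of p53 targets are of interest in its knockdown. Only RNA was measured here, and neither the p53 protein nor its activity was.

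The hairpin is shown because it defines the tested arm. Its sequence, 21 bases in the labels, is directed at Mkrn1 on chromosome 6.
shMKRN1: gcgagatgttgcttatgcttt

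p53 binds DNA as a tetramer that recognises pairs of a decamer, and promoters of the members were searched for that decamer to see how far the list of targets carries it. The search used the standard p53 consensus decamer, whose pattern reads the same on both strands, in RefSeq windows of GRCm38.p6 that run from 250 bases before a gene's start to 50 after it. Of the 43 measured members, 35 had such a window. A decamer was present in 8 of 16 p53 targets with a window (50%), in 1 of 19 apoptosis genes (5.26%, Birc2) and in 2582 of all 27025 genes with a window (9.55%). No member held 2 decamers within 13 bases of each other, a spacing found in 24 of all 32851 windows (0.0731%). A match is a description of the letters, and windows of this length leave out the intronic sites through which several of these genes are known to respond. The target list was made up of genes already known to respond to p53.

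**Figure D1:**
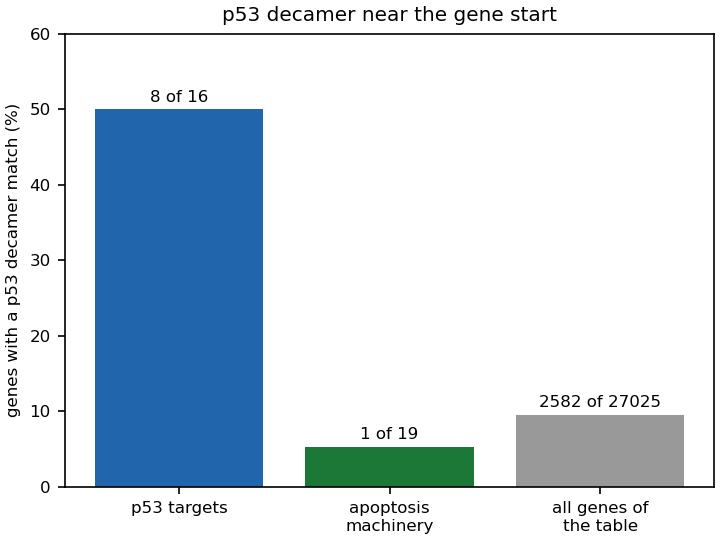
Share of genes (percent, vertical axis from 0) with at least 1 p53 decamer in a promoter window, for p53 targets, apoptosis machinery and all genes with a window. The bars stand at 50% (8 of 16), 5.26% (1 of 19) and 9.55% (2582 of 27025).

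The 250 bases before the start are printed for 4 of the 8 carriers, chosen with their changes known. Of these, Mdm2 (chr10:117710759-117711008, minus strand) and Ccng1 (chr11:40755287-40755536, minus strand) are feedback genes. Ei24 (chr9:36797335-36797584, minus strand) and Gadd45a (chr6:67037408-67037657, minus strand) are the carriers with the lowest and the highest change. The sequences are given 5′ to 3′ on the gene's strand, from RefSeq on GRCm38.p6, with the decamer in capitals. The decamer begins 186 bases before the start in Mdm2, 185 in Ccng1, 10 in Ei24 and 40 in Gadd45a.
Mdm2: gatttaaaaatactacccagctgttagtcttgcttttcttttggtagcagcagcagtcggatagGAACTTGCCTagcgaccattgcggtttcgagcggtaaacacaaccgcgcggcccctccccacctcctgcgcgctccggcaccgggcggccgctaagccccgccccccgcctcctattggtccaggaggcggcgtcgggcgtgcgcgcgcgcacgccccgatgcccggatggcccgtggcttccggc
Ccng1: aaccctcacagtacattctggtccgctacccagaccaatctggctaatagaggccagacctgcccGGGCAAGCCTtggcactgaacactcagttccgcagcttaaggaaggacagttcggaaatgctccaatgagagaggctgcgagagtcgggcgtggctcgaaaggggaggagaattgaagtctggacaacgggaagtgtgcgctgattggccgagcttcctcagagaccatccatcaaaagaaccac
Ei24: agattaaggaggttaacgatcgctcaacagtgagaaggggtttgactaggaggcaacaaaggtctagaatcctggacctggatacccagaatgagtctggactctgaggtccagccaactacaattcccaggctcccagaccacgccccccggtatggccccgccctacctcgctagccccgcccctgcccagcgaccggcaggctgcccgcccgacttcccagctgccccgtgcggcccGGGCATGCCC
Gadd45a: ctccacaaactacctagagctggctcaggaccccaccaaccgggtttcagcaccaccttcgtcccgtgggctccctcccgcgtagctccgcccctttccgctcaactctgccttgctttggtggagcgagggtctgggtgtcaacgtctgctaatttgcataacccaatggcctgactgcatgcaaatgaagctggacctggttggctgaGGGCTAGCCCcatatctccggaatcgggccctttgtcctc

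Mkrn1 itself averaged 9.84 ± 0.0364 on the log2 scale in shMKRN1 cells and 10.44 ± 0.0689 in shGFP cells (SD, n = 4 each). The change of -0.60 (SE 0.052) passed the test (limma adjusted p = 0.000767) and put shMKRN1 cells at 66.2% of the shGFP level. By these values the knockdown was partial at the RNA level, but RMA understates changes and the RNA may have fallen further. Across all genes 896 of 19937 had a limma adjusted p under 0.05 (4.49%), 729 higher and 167 lower in shMKRN1 cells, and the median change was 0.0077. All 10 embryonic stem cell markers lay above the range of silent genes in both groups, that is, above 6.50, the 95th percentile of 1194 odorant and vomeronasal receptor genes. Their mean level was 11.59 to 11.66 in shMKRN1 arrays and 11.56 to 11.63 in shGFP arrays, and 1 of them, Nanog, rose by 0.25 (limma adjusted p = 0.0256). Of the 10, 4 had the higher and 6 the lower mean in shMKRN1 cells. Of 12 fibroblast markers 9 lay above the silent range in each group, with a mean of 7.73 to 7.90 in shMKRN1 arrays and 7.72 to 7.83 in shGFP arrays, and 2 of them, Col1a1 and Pdgfrb, rose by 0.37 and 0.35 (limma adjusted p = 0.0486 and 0.0342). Of the 12, 8 had the higher and 4 the lower mean in shMKRN1 cells. Of 9 measured markers of early differentiation, 8 lay above the silent range in shMKRN1 cells and 9 in shGFP cells, with a mean of 8.08 to 8.28 in shMKRN1 arrays and 7.92 to 8.02 in shGFP arrays. Mixl1 and Eomes, transcription factors of mesendoderm, rose among them by 1.66 and 0.96, and Neurod1, a neural factor, fell by 0.67. The part of such cells in the values below was not tested. Arrays shMKRN1 8 and shGFP 7 stood apart from the others of their groups on the leading principal component (37.6% of the variance), at 7.46 against -15.2 to -6.02 and at 23.2 against -3.45 to 6.2, so results are also given without them.

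None of the 43 members had a limma adjusted p under 0.05, against 4.49% of all genes (3.66% higher and 0.838% lower). The smallest adjusted p among members was 0.0699 (Ddb2). An unadjusted limma p under 0.05 was reached by 9 members, 6 with the higher mean in shMKRN1 cells and 3 with the lower, against 19.5% of all genes. The 4 arrays of each group did not overlap for 3 members, Plk3 and Bid (all shMKRN1 arrays higher) and Bcl2l11 (all lower), against 14.1% of all genes (10.6% higher and 3.51% lower). The members leaned neither way: 19 had the higher mean in shMKRN1 cells and 24 the lower, and their median change was -0.0062 on the log2 scale. The p53 targets had a median of -0.0062 (10 higher, 13 lower) and the apoptosis genes one of -0.0072 (9 higher, 11 lower).

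The intervals of the changes show how precisely the arrays measured the members. Each is a separate 95% interval, not adjusted for the number of members. It rests on a spread between samples that may be technical in part or in whole. The 95% limma interval of the change lay within 1.5-fold in either direction for all 43 members, and within 1.2-fold for 24. The outermost bounds were -0.45 for Phlda3 and 0.50 for Ddb2, which are 0.731 and 1.41 times the shGFP level. RMA understates changes, more so for dim probe sets, and the bounds hold for the values it gives. The median SD within a group was 0.0911 in shMKRN1 and 0.107 in shGFP arrays for members. For all genes it was 0.0896 in shMKRN1 and 0.104 in shGFP arrays. All genes include 5760 within the silent range in both groups, against 1 such member. For the 66 further pathway genes given below the median SD was 0.0717 in shMKRN1 and 0.0745 in shGFP arrays, so the members varied more than those. Without both arrays that stood apart, 0 members passed in limma (8 of 23 p53 targets and 5 of 20 apoptosis genes had an unadjusted p under 0.05), against 4.60% of all genes passing and 21.5% with an unadjusted p under 0.05 in the same fit, and the medians were -0.0044 for p53 targets and -0.0067 for apoptosis genes. Members did pass in 6 of 17 alternative settings, 8 different genes in all, as given below. A fit with neighbouring title numbers as a block, added after seeing the data, called 4 members (9.3%, against 7.25% of all genes).

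**Figure D2:**
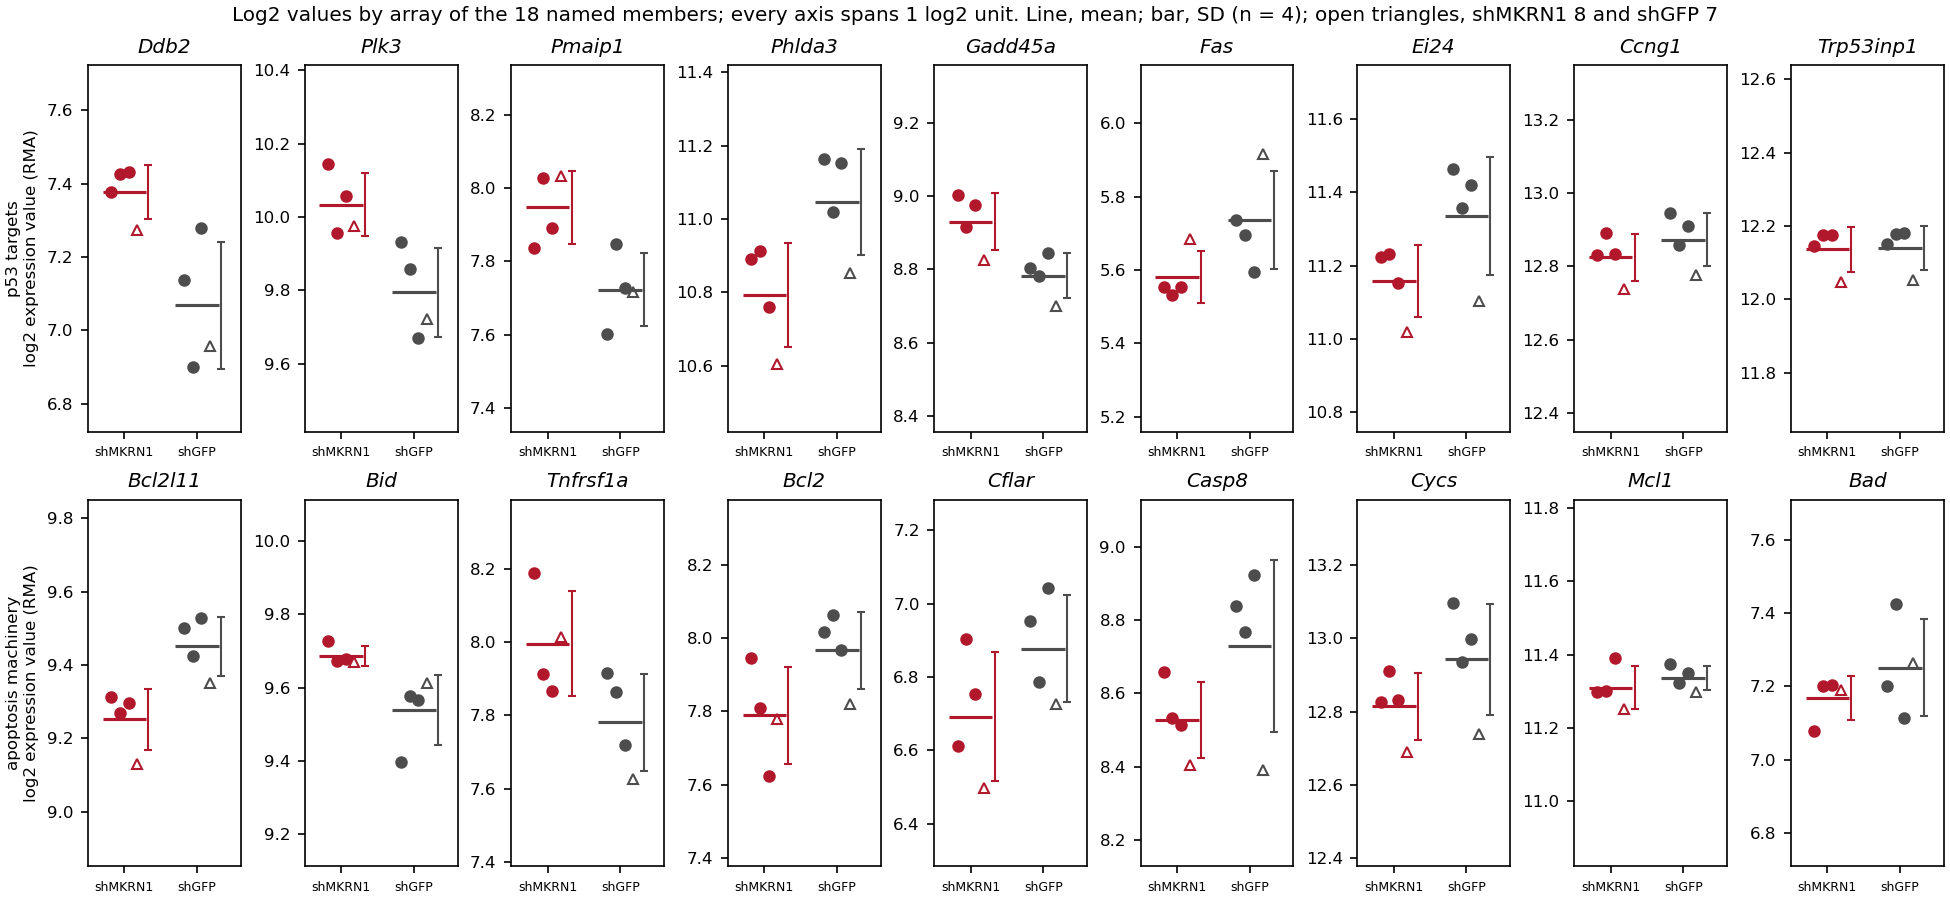
Log2 expression value on each array of 18 members, 9 p53 targets in the upper row and 9 apoptosis genes in the lower, with shMKRN1 left of shGFP in each panel, a line at the mean and a bar for the SD (n = 4); open triangles mark shMKRN1 8 and shGFP 7. Every vertical axis spans 1 log2 unit and is centred on its gene, so heights cannot be compared between panels, and only the panels of Plk3, Bid and Bcl2l11 show groups that do not overlap.

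The 4 members that act on p53 or on signalling around it, Mdm2, Ccng1, Trp53inp1 and Phlda3, had the lower mean in shMKRN1 cells, and none passed the test. Their median change was -0.086. Their roles differ, as Mdm2 and Ccng1 restrain p53 while Trp53inp1 promotes its activity and Phlda3 acts on AKT. Mdm2, the ligase that degrades p53 and a standard readout of its activity, had levels of 10.89, 10.91, 10.86 and 10.69 in shMKRN1 arrays, against 11.05, 11.06, 10.91 and 10.82 in shGFP arrays (log2 scale). The groups overlapped, since shGFP 7 lay below 3 of the shMKRN1 arrays. The means were 10.84 ± 0.0994 and 10.96 ± 0.117 (SD, n = 4 each), a change of -0.12 (SE 0.073; 95% interval -0.29 to 0.04; limma adjusted p = 0.407).

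Phlda3, which encodes a competitor of AKT for membrane lipids, had the lowest change of all members. Its levels were 10.89, 10.91, 10.76 and 10.61 in shMKRN1 arrays, against 11.16, 11.02, 11.15 and 10.85 in shGFP arrays. Only shGFP 7 came down into the shMKRN1 range. The change was -0.25 (SE 0.089; limma adjusted p = 0.147), and it passed in 1 of 17 alternative settings, with weighted arrays (adjusted p = 0.0418). Ccng1, cyclin G1, which directs a phosphatase to MDM2, had 12.83, 12.89, 12.83 and 12.74 in shMKRN1 arrays and 12.94, 12.86, 12.91 and 12.78 in shGFP arrays. Its groups lay largely on top of each other (change -0.05, SE 0.057; limma adjusted p = 0.715). Trp53inp1, a stress-induced partner that promotes p53 activity in the nucleus, had 12.14, 12.18, 12.18 and 12.05 in shMKRN1 arrays and 12.15, 12.18, 12.18 and 12.05 in shGFP arrays. Both groups held nearly the same 4 values (change -0.0040, SE 0.054; limma adjusted p = 0.982), and the sign of so small a difference turned in 4 of 17 settings.

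The death effectors and receptors among the p53 targets were divided, 4 with the higher and 6 with the lower mean in shMKRN1 cells. The 2 BH3-only genes of this class gave unlike values. Pmaip1, which encodes NOXA, an antagonist of MCL1, had 7.84, 8.03, 7.89 and 8.03 in shMKRN1 arrays, against 7.60, 7.85, 7.73 and 7.72 in shGFP arrays. The shMKRN1 arrays were the higher ones, with shGFP 3 just inside their range (means 7.95 ± 0.0987 and 7.72 ± 0.100, SD, n = 4 each). The change was 0.22 (SE 0.069; 95% interval 0.07 to 0.38; limma adjusted p = 0.102), and it passed in 1 of 17 settings, when only genes above the median level were tested (adjusted p = 0.0403). Bbc3, which encodes PUMA, had 7.94, 7.86, 7.88 and 7.95 in shMKRN1 arrays and 7.87, 7.79, 8.04 and 7.85 in shGFP arrays. The highest and the lowest of its 8 values both came from shGFP cells (change 0.02, SE 0.062; limma adjusted p = 0.899).

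Fas, a death receptor of the TNF receptor family, had 5.55, 5.53, 5.55 and 5.69 in shMKRN1 arrays and 5.73, 5.70, 5.60 and 5.92 in shGFP arrays. It was the only member whose mean lay within the range of silent genes in both groups, so its change of -0.15 (limma adjusted p = 0.276) concerns a transcript near the array's background. Tnfrsf10b, the mouse receptor for TRAIL, had 10.55, 10.44, 10.43 and 10.33 in shMKRN1 arrays and 10.36, 10.39, 10.27 and 10.20 in shGFP arrays. Here 3 shMKRN1 arrays lay above all shGFP arrays, and the change of 0.13 did not pass (SE 0.065; limma adjusted p = 0.310). Ei24, an endoplasmic reticulum protein induced by p53, had 11.22, 11.23, 11.15 and 11.02 in shMKRN1 arrays and 11.46, 11.36, 11.42 and 11.10 in shGFP arrays. As for Phlda3, only shGFP 7 reached the shMKRN1 range (change -0.18, SE 0.084; limma adjusted p = 0.282). The other members of this class, the receptor gene Eda2r, the desmosome gene Perp, the caspase-2 scaffold gene Pidd1, the nuclease gene Aen and the RNA-binding protein gene Zmat3, had changes between -0.10 (Eda2r) and 0.07 (Perp).

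Of the 6 genes of cell cycle and growth among the p53 targets, 5 had the higher mean in shMKRN1 cells. Their median change was 0.081, and none passed the test. Plk3, a stress-responsive polo-like kinase, had 10.14, 9.96, 10.06 and 9.98 in shMKRN1 arrays, against 9.93, 9.86, 9.67 and 9.72 in shGFP arrays. Every shMKRN1 array lay above every shGFP array. The change was 0.24 (SE 0.072; 95% interval 0.08 to 0.40; limma adjusted p = 0.0943), and it passed in 3 of 17 settings, with adjusted p values from 0.0371 to 0.227 over all of them. Plk2, its relative, had 9.48, 9.59, 9.49 and 9.20 in shMKRN1 arrays and 9.38, 9.40, 9.36 and 9.08 in shGFP arrays. In Plk2 the arrays shMKRN1 8 and shGFP 7 were clearly the lowest of their groups, and the change of 0.13 did not pass (SE 0.098; limma adjusted p = 0.517).

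Gadd45a, a stress sensor that binds PCNA and the kinase MEKK4, had 9.0, 8.92, 8.98 and 8.83 in shMKRN1 arrays and 8.80, 8.78, 8.85 and 8.70 in shGFP arrays. The means were 8.93 ± 0.0783 and 8.78 ± 0.0608 (SD, n = 4 each), and only shGFP 5 reached above the lowest shMKRN1 array. The change of 0.15 did not pass (SE 0.057; limma adjusted p = 0.186), except with weighted arrays (adjusted p = 0.0410). Btg2, an antiproliferative partner of the CCR4-NOT deadenylase, and Sesn1, a sestrin that restrains mTORC1, had changes of 0.03 and 0.02. Their signs turned in 2 and 5 of 17 settings. Gtse1, a microtubule-associated protein that counters p53 in G2, was the 1 member of this class with a lower mean in shMKRN1 cells (-0.07; limma adjusted p = 0.578).

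Of the DNA repair and nucleotide supply genes, Ddb2 had the largest change of all members. DDB2 recognises ultraviolet lesions for nucleotide excision repair. Its levels were 7.38, 7.43, 7.43 and 7.27 in shMKRN1 arrays, against 7.14, 6.90, 7.28 and 6.96 in shGFP arrays. The shGFP arrays were the more scattered (means 7.38 ± 0.0734 and 7.07 ± 0.173, SD, n = 4 each), and shGFP 5 just overlapped the lowest shMKRN1 array. The change was 0.31 (SE 0.084; 95% interval 0.12 to 0.50; limma adjusted p = 0.0699), and it passed in 3 of 16 settings, with adjusted p values from 0.00856 to 0.186 over all of them. These were the intensity trend (adjusted p = 0.0495), array weights (change 0.40) and the fit without shGFP 5 (change 0.38; adjusted p = 0.0290). Rrm2b, the p53-inducible subunit of ribonucleotide reductase, and Polk, a translesion polymerase, had changes of -0.0062 and -0.08.

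**Figure D3:**
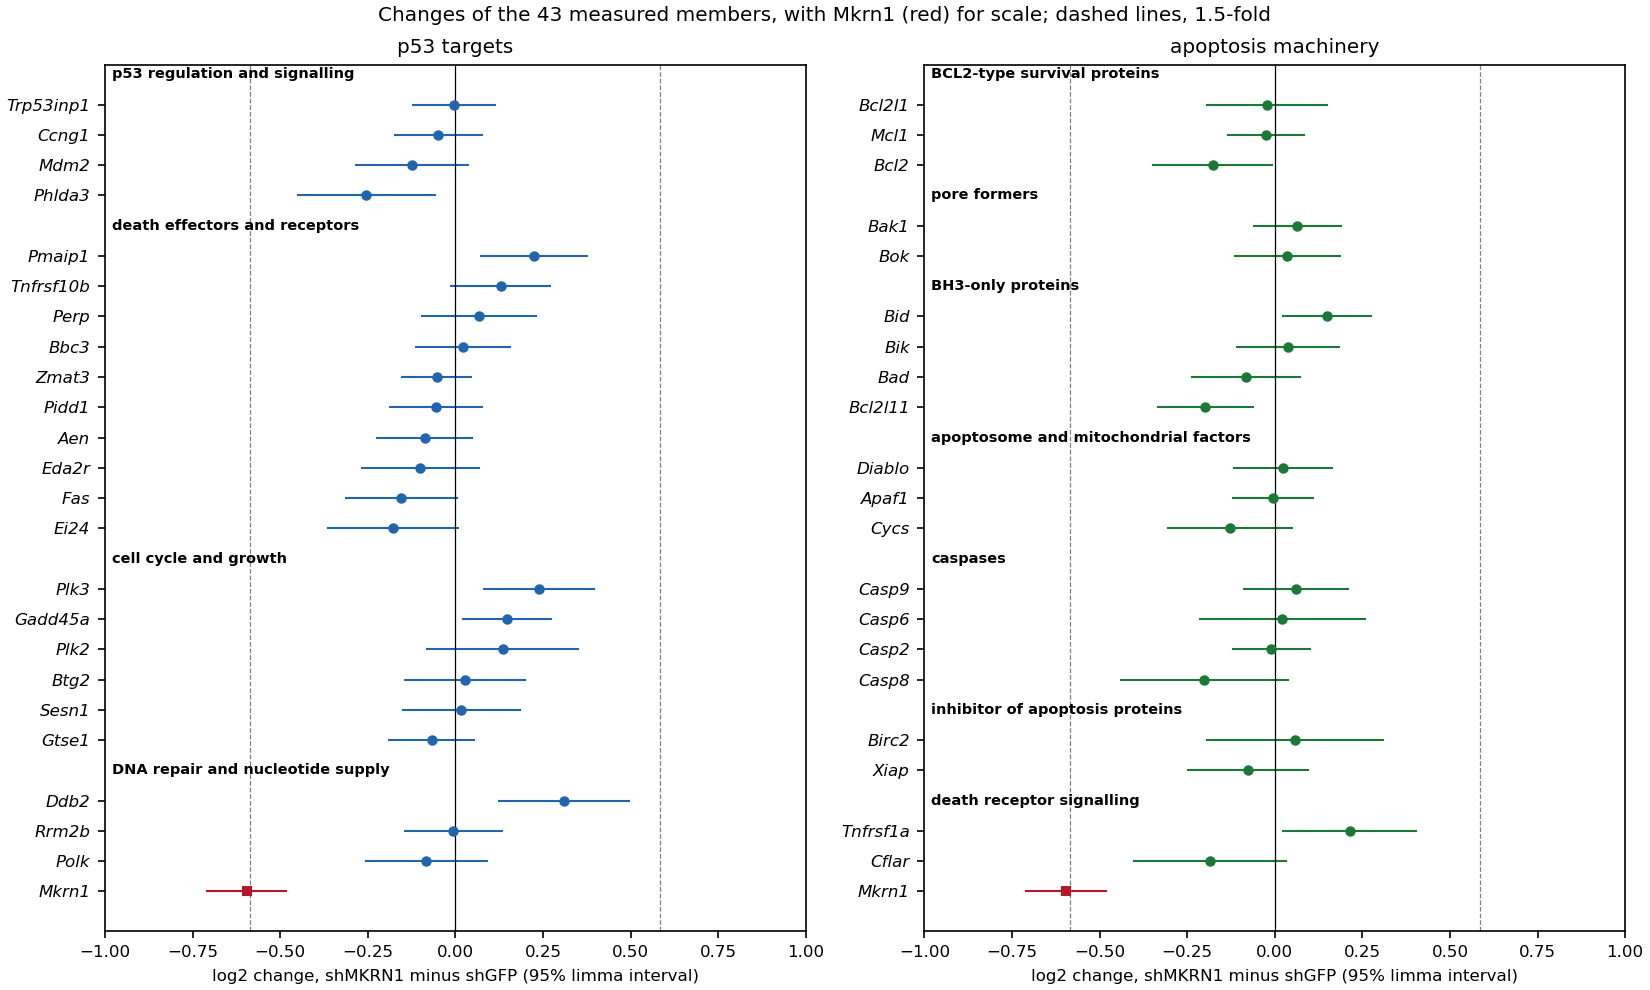
Log2 change, shMKRN1 minus shGFP (horizontal axis), of each measured member (points) with its 95% limma interval (lines), by role within p53 targets and apoptosis machinery; Mkrn1 (squares) is drawn for scale and dashed lines mark 1.5-fold. The members' intervals run from -0.45 (Phlda3) to 0.50 (Ddb2), and no member passed the test after adjustment over 19937 genes.

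The 3 survival genes of the BCL2 family among the members had the lower mean in shMKRN1 cells, by small amounts. Bcl2l2 and Bcl2l10, BCL2-like genes outside the members, had the higher mean, by 0.13 and 0.03. Bcl2l10 lay within the silent range in both groups. Bcl2, which holds pore formers in check at the mitochondrion, had 7.94, 7.81, 7.62 and 7.78 in shMKRN1 arrays and 8.02, 8.06, 7.97 and 7.82 in shGFP arrays. The groups overlapped through shMKRN1 2 and shGFP 7 (means 7.79 ± 0.131 and 7.97 ± 0.106, SD, n = 4 each). The change of -0.18 did not pass (SE 0.078; limma adjusted p = 0.246), except with weighted arrays, where it was -0.27 (adjusted p = 0.0366). Mcl1, the gene of a short-lived survival protein, had 11.30, 11.30, 11.39 and 11.25 in shMKRN1 arrays and 11.38, 11.32, 11.35 and 11.30 in shGFP arrays. Its change of -0.03 had a 95% interval of -0.14 to 0.09 (limma adjusted p = 0.839). Bcl2l1, the gene of BCL-XL, had a change of -0.02 (limma adjusted p = 0.918), whose sign turned in 4 of 17 settings.

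The pore former genes Bak1 and Bok had the higher mean in shMKRN1 cells, by 0.06 and 0.04, within the spread of the arrays. The BH3-only genes held both apoptosis members whose groups did not overlap, and they lay on opposite sides. Bid, which links death receptors to mitochondria, had 9.73, 9.67, 9.68 and 9.67 in shMKRN1 arrays, against 9.40, 9.58, 9.57 and 9.61 in shGFP arrays. All shMKRN1 arrays were above all shGFP arrays, of which shGFP 1 was the lowest by far. The change was 0.15 (SE 0.057; 95% interval 0.02 to 0.28; limma adjusted p = 0.185), and it passed in none of 17 settings. Bcl2l11, which encodes the pro-apoptotic BIM, had 9.31, 9.27, 9.30 and 9.13 in shMKRN1 arrays, against 9.50, 9.42, 9.53 and 9.35 in shGFP arrays. Every shMKRN1 array lay below every shGFP array. The change was -0.20 (SE 0.062; 95% interval -0.34 to -0.06; limma adjusted p = 0.106), and it passed in 3 of 17 settings, with adjusted p values from 0.0201 to 0.220 over all of them. Bad and Bik, the other BH3-only genes, had changes of -0.08 and 0.04. Bad had 7.08, 7.20, 7.20 and 7.19 in shMKRN1 arrays and 7.20, 7.43, 7.11 and 7.26 in shGFP arrays, which overlapped throughout.

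The apoptosome and mitochondrial genes and the caspases showed no member past the test. Cycs, the gene of cytochrome c, ranged from 12.69 to 12.91 in shMKRN1 arrays and from 12.74 to 13.10 in shGFP arrays (change -0.13, SE 0.080; limma adjusted p = 0.441). Its 3 probe sets disagreed in sign (-0.13, -0.20 and 0.05), but the one at 0.05 had a mean level of 6.48, within the silent range. The other 2 had mean levels of 12.88 and 9.46. Cytochrome c has processed pseudogenes to which probes could also bind. Apaf1, the scaffold of the apoptosome, and Diablo, whose product displaces inhibitors of caspases, had changes of -0.0051 and 0.02.

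Casp8, the initiator caspase of death receptors, had 8.66, 8.53, 8.51 and 8.41 in shMKRN1 arrays, against 8.84, 8.77, 8.92 and 8.39 in shGFP arrays. Array shGFP 7 was the lowest of all 8, while the other 3 shGFP arrays lay above every shMKRN1 array. The change was -0.20 (SE 0.108; 95% interval -0.44 to 0.04; limma adjusted p = 0.353), and without shGFP 7 it was -0.31 and passed (adjusted p = 0.0401). The same array was the lowest for Casp6, an executioner caspase, which had 9.03, 9.03, 8.90 and 8.84 in shMKRN1 arrays and 9.07, 9.03, 9.04 and 8.58 in shGFP arrays. Casp6 had a change of 0.02 (limma adjusted p = 0.949). Casp2 and Casp9, the initiators of the PIDDosome and the apoptosome, had changes of -0.0093 and 0.06.

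At the death receptors, Tnfrsf1a, the widely expressed receptor for TNF, had 8.19, 7.91, 7.87 and 8.01 in shMKRN1 arrays and 7.91, 7.86, 7.72 and 7.63 in shGFP arrays. The shMKRN1 arrays were mostly the higher (means 8.0 ± 0.142 and 7.78 ± 0.132, SD, n = 4 each), and the change of 0.21 did not pass (SE 0.086; limma adjusted p = 0.203). Cflar, which encodes the caspase-8 inhibitor c-FLIP, had 6.61, 6.90, 6.75 and 6.50 in shMKRN1 arrays and 6.95, 6.78, 7.04 and 6.73 in shGFP arrays. Its change was -0.19 (SE 0.098; limma adjusted p = 0.345), and its 3 probe sets were all lower in shMKRN1 cells (-0.19, -0.16 and -0.13). The one at -0.13 had a mean level of 6.36, within the silent range. The inhibitor of apoptosis genes Xiap and Birc2 had changes of -0.08 and 0.06, and the 2 probe sets of Birc2 disagreed in sign (0.06 and -0.05).

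**Figure D4:**
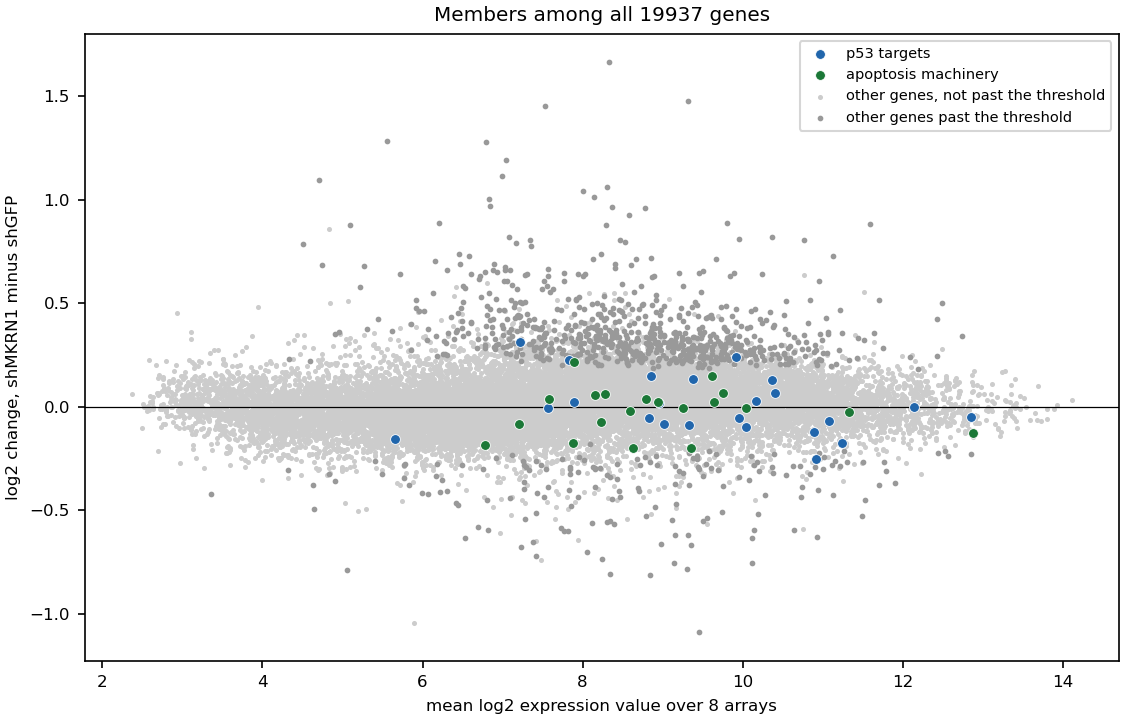
Log2 change (vertical axis, shMKRN1 minus shGFP) against the mean log2 level over the 8 arrays (horizontal axis) for p53 targets, apoptosis machinery and, in grey, all other genes. The members lie between -0.25 and 0.31 over their whole range of levels.

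The means of the 2 lists varied more from array to array than between the groups. Averaged over the p53 targets, the deviation from the mean shGFP level was 0.046, 0.054, 0.0044 and -0.086 in arrays shMKRN1 2, 4, 6 and 8, against 0.036, 0.0091, 0.043 and -0.088 in arrays shGFP 1, 3, 5 and 7. Over the apoptosis genes it was 0.021, 0.0060, -0.032 and -0.085 in the shMKRN1 arrays, against 0.022, 0.012, 0.052 and -0.086 in the shGFP arrays. In both lists 1 array of each group was low, shMKRN1 8 and shGFP 7, the arrays that also stood apart over all genes. The range within a group was 0.140 in shMKRN1 and 0.131 in shGFP arrays for p53 targets, while the group means differed by 0.0044. For apoptosis genes the ranges were 0.106 and 0.138, and the group means differed by -0.022. Over all genes the ranges were 0.053 and 0.039, and the group means differed by 0.017. Changes of opposite sign cancel in such means, so they do not describe single members.

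Array shMKRN1 8 was the lowest shMKRN1 array for 31 of 43 members (72.1%), against 34.3% of all genes. Array shGFP 7 was the lowest shGFP array for 28 of 43 (65.1%), against 32.0% of all genes. Over all genes these arrays were not low, with a mean deviation of 0.028 for shMKRN1 8 and 0.022 for shGFP 7. Both lists shared the feature, with shMKRN1 8 lowest for 18 of 23 p53 targets and 13 of 20 apoptosis genes, and shGFP 7 lowest for 16 and 12. All genes include 5760 within the silent range in both groups, against 1 such member. In the further lists below, shMKRN1 8 and shGFP 7 stood at -0.026 and -0.061 for regulators of p53. For further p53 targets they stood at -0.020 and -0.042. They were the lowest of their groups in these lists, but not for further apoptosis genes (0.045 and 0.019). The arrays were chosen for this description after their values were seen, and what set them apart was not tested.

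**Figure D5:**
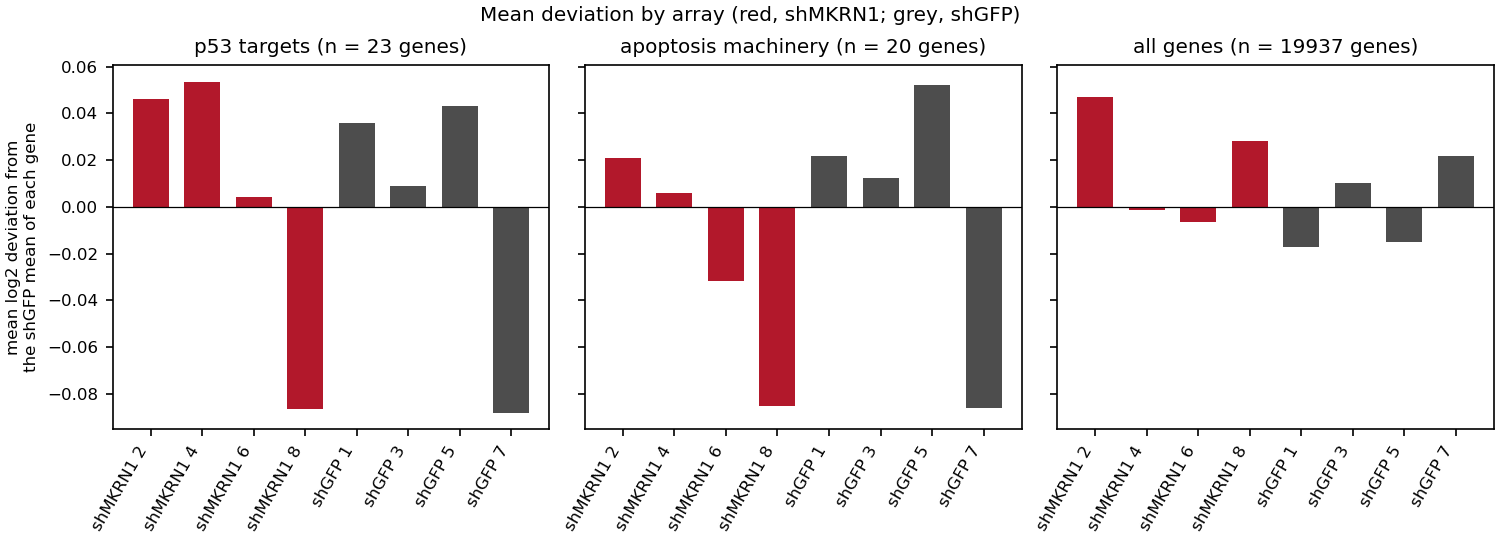
Mean deviation from the shGFP mean of each gene (log2 scale, vertical axis) on each array (bars, shMKRN1 left of shGFP), for p53 targets, apoptosis machinery and all genes. The lowest bar of each group in both lists is shMKRN1 8 or shGFP 7, at -0.085 to -0.088, while over all genes these arrays stand at 0.028 and 0.022.

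The p53 targets with and without a decamer near their start had overlapping ranges of change, and their difference was not tested. The 8 carriers, the 4 printed above with Aen, Gtse1, Polk and Sesn1, had changes between -0.18 and 0.15 with a median of -0.075, and 6 had the lower mean in shMKRN1 cells. The 8 without one had a median of -0.017, and 4 had the lower mean. The carriers with the lowest and the highest change, Ei24 and Gadd45a, both hold the decamer close to the start, and their changes have opposite signs.

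Further genes of the same pathways were read from a list of 71, of which 66 were measured; the others, Trp53 and Cdkn1a among them, are not analysed here. Of the 66, 3 rose and 1 fell in shMKRN1 cells (6.06%, against 4.49% of all genes), with a median change of 0.030. The list was chosen with earlier results of these data known, so these shares are a description only. None of 18 regulators of p53 passed in limma, at a smallest adjusted p of 0.107, and 4 had an unadjusted p under 0.05, near the 19.5% of all genes. Mdm4, the partner of MDM2 that masks the activation domain of p53, had a change of -0.14 (SE 0.061; limma adjusted p = 0.243). Of 19 further p53 targets 1 rose and 1 fell, and of 29 further apoptosis genes 2 rose.

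Ddit4, an inhibitor of mTORC1 induced by p53 and by other stress pathways such as hypoxia and ATF4, had 10.12, 10.10, 10.19 and 10.22 in shMKRN1 arrays, against 9.47, 9.49, 9.54 and 9.61 in shGFP arrays. The groups were far apart, and the call held in 17 of 17 settings (change 0.63, SE 0.053; limma adjusted p = 0.000711). Trp53i11, a p53-inducible gene, had 11.67, 11.62, 11.64 and 11.61 in shMKRN1 arrays, against 11.80, 11.96, 11.88 and 11.97 in shGFP arrays. Its groups did not overlap and it fell by 0.27 (SE 0.054; limma adjusted p = 0.0241), but it lost the call in 6 of 17 settings (adjusted p up to 0.0876). The single p53-linked genes that passed thus lay on both sides.

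Bcl2l13, a BCL2-like protein of the outer mitochondrial membrane, had 9.75, 9.66, 9.71 and 9.57 in shMKRN1 arrays, against 9.32, 9.42, 9.47 and 9.37 in shGFP arrays. It rose by 0.27 without overlap (SE 0.058; limma adjusted p = 0.0294) and lost the call in 8 of 17 settings (adjusted p up to 0.103). Mlkl, the executor of necroptosis, had 6.49, 6.70, 6.61 and 6.42 in shMKRN1 arrays, against 6.09, 6.34, 6.29 and 6.21 in shGFP arrays. It rose by 0.33 (SE 0.076; limma adjusted p = 0.0421), but its shGFP mean of 6.23 lay within the silent range and its shMKRN1 mean of 6.56 just above it, and the call was lost in 9 of 16 settings (adjusted p up to 0.129).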

How the data were processed

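The deposited table holds log2 expression values of 34760 probe sets on 8 arrays, which the authors made with RMA (submitters' processing notes; version not given in the sources used here). The method corrects the background, brings the arrays to 1 distribution and summarises the probes, so a change that affects most transcripts alike is not visible. Array medians were 7.14 to 7.24, all 8 columns belonged to the samples, and no columns were identical. Scan dates and batches are not given in the sources used here. Gene names came from the platform annotation: 21640 probe sets had 1 symbol, 1321 several and 11799 none. Of several probe sets with 1 symbol (954 genes), the one with the highest mean was kept, giving 19937 genes.

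Samples were grouped by the hairpin in their titles. Differences, shMKRN1 minus shGFP, were fitted with limma 3.58.1 in R 4.3.3 (lmFit and eBayes, no filter, no covariate, 6 residual and 4 prior degrees of freedom), two-sided, with Benjamini-Hochberg adjustment over all 19937 genes and a threshold of 0.05. Mkrn1 was also compared by an exact permutation test over the 70 assignments of arrays, p = 0.0286, the smallest it can give. The number of arrays limits the precision. The 17 alternatives were quantile normalization, median centring, testing only genes above the median level, 3 other forms of moderation or weighting (intensity trend, robust prior, array weights), the mean of a gene's probe sets, adjustment over every probe set, leaving out each of the 8 arrays, and leaving out shGFP 7 with shMKRN1 8. A fit with neighbouring title numbers as a block was added after seeing the data and is not counted among the 17.

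The members, the further lists and the markers were chosen with earlier results of these data known. The rule for named genes took, in each list, the 6 members with the smallest p, the 2 largest increases and decreases and the 2 highest and 2 lowest mean levels, then Mkrn1, further pathway genes past the threshold, and a few set genes, of which Mdm4 was measured. It gave 18 members; the others are named as members of their role and were singled out after their values were seen. Promoter windows were RefSeq's on GRCm38.p6.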

Additional observations from a re-analysis of the deposited data

Results flagged for a closer look

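The named genes and the 2 list means were searched, group by group, for 1 array far from the other 3, and 3 of 52 group values met the criterion for an outlying array (Dixon's test at the 95% level), which chance meets in about 1 of 20 groups. Array shMKRN1 8 had a Fas level of 5.69, against 5.55 in the nearest shMKRN1 array, within the silent range. Array shMKRN1 2 had a Bid level of 9.73, against 9.68 in the nearest, so the other 3 shMKRN1 arrays lay very close together. Array shMKRN1 2 had a Bad level of 7.08, against 7.19 in the nearest.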

How the results depend on the processing

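The number of all genes past the threshold, 896, was 1595 when only genes above the median level were tested, 1548 with an intensity trend, 2757 with array weights, 378 when adjusted over every probe set, and 309 to 852 with 1 array left out. The split between genes higher and lower in shMKRN1 cells was 729 and 167, against 445 and 192 after median centring and 806 and 290 after quantile normalization. Members passed in 6 of the 17 alternatives, 8 different genes in all. Among p53 targets 2 passed above the median level (Plk3 and Pmaip1), 2 with the trend (Ddb2 and Plk3), 4 with array weights (Ddb2, Gadd45a and Plk3 higher, Phlda3 lower), and 0 to 1 with 1 array left out (Ddb2 without shGFP 5). Among apoptosis genes 1 passed after quantile normalization and 1 above the median level (Bcl2l11 both times), 2 with array weights (Bcl2 and Bcl2l11, lower), and 0 to 1 with 1 array left out (Casp8 without shGFP 7). Beside these member counts stand 2757 of all 19937 genes with array weights, 1548 with the trend and 309 to 852 with 1 array left out. Above the median level 1595 passed, out of fewer than 19937 genes. Fewer than 43 members were tested there, and Ddb2 was not among them. The member counts were not tested against the counts of all genes. The cause of the differences between settings was not tested, beyond the smaller number of genes or arrays that some alternatives use. The change of Trp53inp1 turned sign, to 0.0041 after quantile normalization, and ran from -0.034 to 0.025 with 1 array left out. Of the 43 members, 31 kept the sign of their change in all alternatives. Mkrn1 kept its call throughout. The median changes of both lists moved by less than the spread between arrays. The groups share no replicate number, and the labels state no pairing. A block of neighbouring title numbers (shMKRN1 2 with shGFP 1, and so on), added after seeing the data, called 1446 of all genes, 3 p53 targets (Ddb2 and Pmaip1 higher, Phlda3 lower) and 1 apoptosis gene (Bcl2l11, lower), 9.3% of members against 7.25% of all genes. The deviations of neighbours from their group means correlated across genes at 0.64 for shMKRN1 8 with shGFP 7, but at 0.13, -0.05 and 0.26 for the other pairs. Deviations within a group sum to 0 and so depend on each other, and the correlations cannot settle whether the arrays were paired. The main fit used no pairs. Signal over background limits Fas, Bcl2l10, 1 probe set each of Cycs and Cflar and, in shGFP cells, Mlkl.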
